A study of Mus musculus with 661 samples.

Results

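The cells described are 124 single stromal cells sorted from the mouse bone surface (endosteum). The study's clustering placed them in mesenchymal clusters 6 to 16 (M6 to M16), the clusters it likens to endosteal MSC-S. They were chosen by the cluster number in each cell's label alone, and they make up 124 of 354 mesenchymal cells and 124 of all 661 cells. The cells came from wild-type C57BL/6 mice, labelled only Young or Old, and each was sorted into its own well and sequenced by a Smart-Seq2 type protocol that reads whole transcripts without molecular identifiers. The other mesenchymal cells are M1 and M2 (136 cells, likened to the leptin receptor-positive MSC-L of the marrow) and M3 to M5 (94 cells, likened to osteoprogenitors, OPr). Of the 124 cells 71 were young and 53 old.

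Mesenchymal stromal cells of bone sit in separate places: leptin receptor-positive cells wrap the sinusoids of the marrow and make Cxcl12 and stem cell factor, while the bone surface carries osteoblast precursors and fibroblast-like cells that bear Sca-1, the protein of Ly6a. Fibroblasts of the perivascular sheath, the tendon, the cartilage edge and the joint lining all lie next to bone, and each makes its own matrix. Known markers of these tissues are fibrillin and Dpp4 for adventitial fibroblasts, tenomodulin and thrombospondin 4 for tendon, aggrecan and link protein for cartilage, and lubricin (Prg4) for the joint lining.

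The sort sets limits on what these cells can show. MSC-S were gated as CD45-, Ter119-, CD31-, Sca-1+ and CD51+ cells of the bone surface, mOPr as Sca-1-, CD51+, PDGFRα+ and LepR-, OPr as Sca-1-, CD51+, PDGFRα- and LepR-, and MSC-L as Sca-1-, CD51+, PDGFRα+ and LepR+ cells of the marrow. M6 to M16 held 103 cells sorted as MSC-S, 16 as mOPr and 5 as OPr, so the sort had selected most of them for Sca-1 protein. They took in 50 of 59 young MSC-S (84.7%, 73 to 92.8) and 53 of 59 old MSC-S (89.8%, 79.2 to 96.2), with exact Clopper-Pearson 95% intervals here and below. Of young mOPr 16 of 26 (61.5%, 40.6 to 79.8) fell in these clusters and of young OPr 5 of 44 (11.4%, 3.79 to 24.6), against 0 of 26 old mOPr, which allows a share of up to 13.2%, and 0 of 29 old OPr (up to 11.9%). None of 53 young and 58 old MSC-L fell there (up to 6.72% and 6.16%).

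The clusters differ in size and make-up. M16 held 36 cells, M12 27, M15 17, M7 15, M9 10, M8 7, M6 5 and M14 4, and M10, M11 and M13 held 1 cell each. M15 held 17 young and 0 old cells (5 sorted as MSC-S, 7 as mOPr and 5 as OPr), and M9 held 10 old and 0 young cells. Of the cells of M16 6 came from the lowest range of library numbers in the titles, and of M7 10. Most of the 30 cells of M16 in the second range had numbers from RBG19910 to RBG19968, a run without cells of M7 or M9. That run was not looked at by itself, so agreement between the ranges does not separate M16 from it. M7 had 9 young and 6 old cells, M12 17 and 10, M14 3 and 1, and M16 15 and 21. Nuclear counts per cell ranged from 169457 to 1167616 with a median of 663399, against medians of 406446 in M1 and M2 and 515639.5 in M3 to M5. With each cell thinned to 100000 counts the median number of genes was 4841, and it was 5088 in M7, 4049 in M12, 4708 in M14, 4746 in M15 and 5669 in M16. The median mitochondrial share was 1.30%. The labels name no mouse, so the cells of an age and a sorted population are 1 sample, no test was made, and every value is a description. The clusters were themselves built from the genes of these cells, so a difference between clusters is no test either.

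Levels are CPM, the counts of a gene in the summed cells over all their nuclear counts, times 1e6, with exact Poisson 95% intervals, and a cell is said to carry a gene at 10 CPM or more. The Poisson intervals cover the counting of reads only, and amplified reads without identifiers are not separate molecules. The Clopper-Pearson intervals cover the counting of cells only, and neither covers differences between mice. A ratio is the log2 ratio of such levels after adding 1 CPM, and a gene is called higher or lower at 2-fold. Measured genes are the 17717 with at least 100 counts in at least 5 mesenchymal cells.

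The label markers Ly6a, Cd34, Thy1, Col1a1 and Dcn fit some of these clusters and not others. Dcn, which encodes the collagen-binding proteoglycan decorin, was carried by 124 of 124 cells at 20245 CPM (cells from 188 to 84654, median 15031), against 800.4 CPM in M1 and M2 and 7952 in M3 to M5. Ly6a stood at 962 CPM (955 to 968) and was carried by 102 cells (82.3%, 74.4 to 88.5), against 6.08 CPM in M1 and M2 and 81.3 in M3 to M5. Every cell of M7 and M16 carried it, at 2834 and 655 CPM, and 22 of 27 in M12 at 804 CPM, yet M15 had 72.9 CPM from 4 of 17 cells. Cd34, a sialomucin of progenitors and of adventitial fibroblasts, reached 2199.9 CPM in M7 and 624 in M12 but 17.6 in M15 and 8.68 in M16, where 2 of 36 cells carried it. In M14 it came to 48.5 CPM, with 96.6% of the counts in 1 cell. Thy1, the surface protein CD90, was carried by 31 of the 124 cells, 10 of 15 in M7 and 12 of 27 in M12. M14 and M15 gave 0 counts of Thy1, and M16 gave 1 count. Col1a1, the main chain of bone and fibroblast collagen, stood at 1586 CPM, above the 173 of M1 and M2 and below the 3467 of M3 to M5, where 1 cell gave 30.0% of the counts. All 5 markers were carried by 27 of the 124 cells, 4 by 30, 3 by 48, 2 by 12 and 1 by 7, with a median of 5 in M7, 4 in M12, 3 in M14 and M16 and 2 in M15. The data thus go against the label in M15, where most cells lacked Ly6a and all lacked Thy1, and against Cd34 and Thy1 as marks of M14 and M16. The clusters are therefore named below by number and leading genes.

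**Figure D1:**
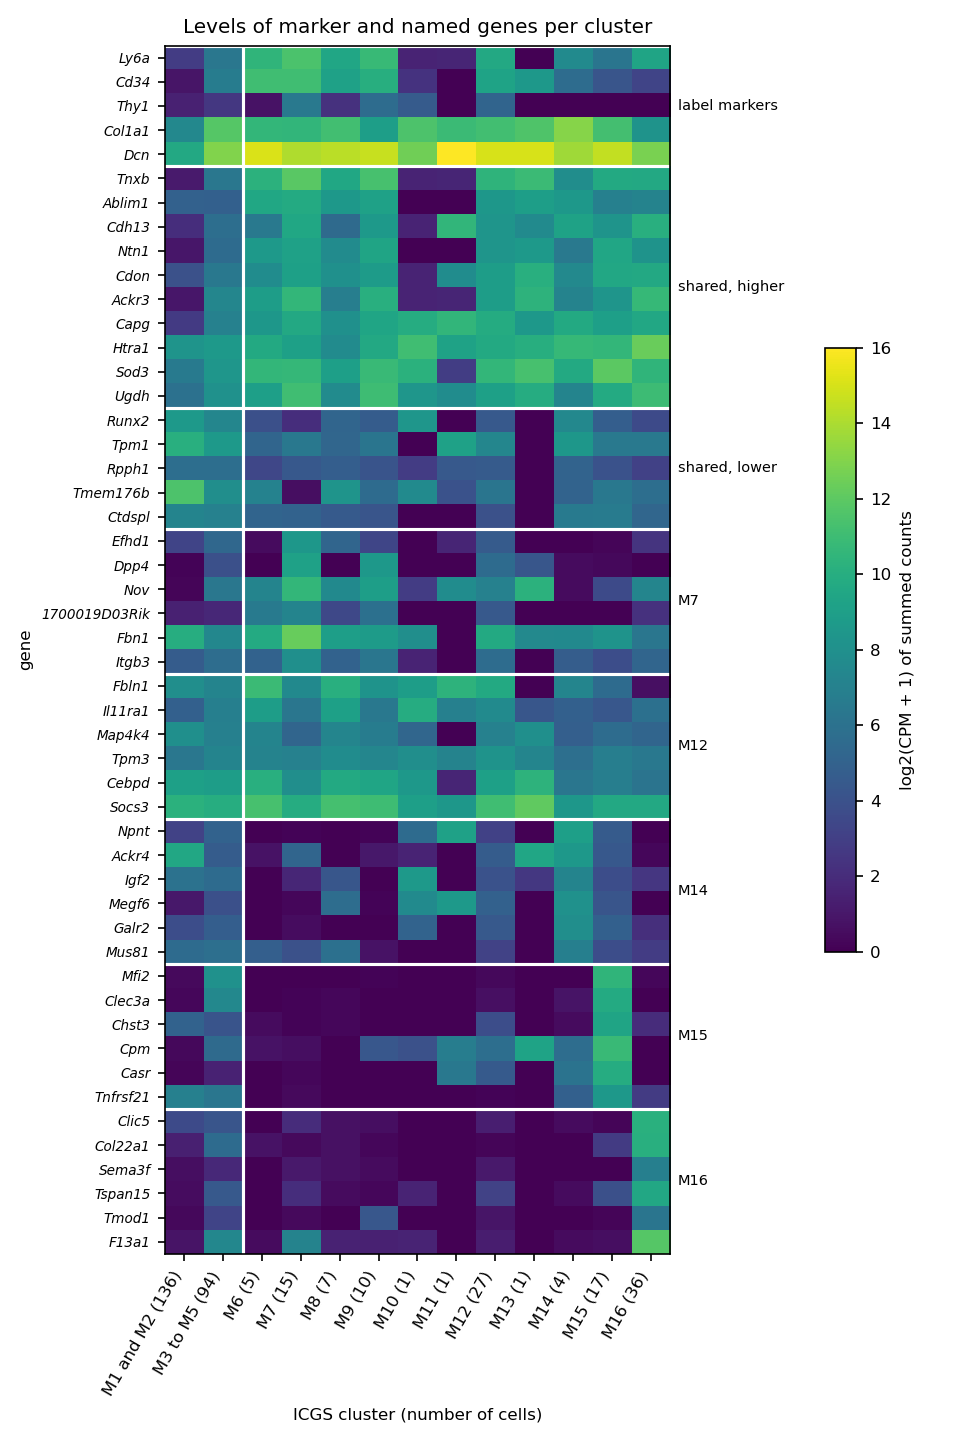
Heat map of log2(CPM + 1) of summed counts (colour) for the label markers, the genes shared by M6 to M16 and the leading genes of each large cluster (vertical axis) in M1 and M2, in M3 to M5 and in each of M6 to M16 (horizontal axis). Dcn is at 33401 CPM in M12 and 7131 CPM in M16, against 7952 CPM in M3 to M5, whereas Cd34 is at 2199.9 CPM in M7 and 8.68 CPM in M16 and Thy1 is at 0 CPM in M14 and M15.

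Against the rest of the mesenchyme, M6 to M16 had more RNA of several fibroblast genes and less of osteoblast genes. Tnxb, which encodes the matrix protein tenascin X, stood at 1438 CPM against 1.21 in M1 and M2 and 79 in M3 to M5, and 112 of 124 cells carried it. Capg, an actin-capping protein, was carried by 122 cells at 714 CPM (708 to 719) against 5.54 and 128 CPM, and Cdon, a co-receptor for hedgehog ligands, by 121 cells at 595 CPM against 14.4 and 82.1. The bone transcription factor Runx2 went the other way, with 23.9 CPM (22.9 to 25.0) in M6 to M16 and 405 and 164 CPM in M1 and M2 and in M3 to M5.

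Compared with M1 and M2, 2376 of the measured genes were at least 2-fold higher in M6 to M16 (13.4%) and 4787 lower (27%). Compared with M3 to M5, 1979 were higher (11.2%) and 3344 lower (18.9%), and compared with M1 to M5 together 1345 were higher (7.59%) and 4476 lower (25.3%). Higher against both sides were 845 genes and lower against both 1471. When each of M7, M12, M14, M15 and M16 had to pass against both sides, 40 genes were higher and 606 lower. Beside Tnxb, Capg and Cdon, the 40 included Ablim1, Cdh13, Sod3, the caveolins Cav1 and Cav2, the S100 protein S100a4, the chemokine scavenger Ackr2 and the posterior limb gene Hoxd9.

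Of the 10 genes chosen because 50% or more of the cells of each large cluster carried them, 6 are among those 40, and Ackr3, Ntn1, Htra1 and Ugdh are not. Ackr3, a scavenging receptor of Cxcl12, was at 974 CPM in M6 to M16 and 0.935 CPM in M1 and M2, a log2 ratio of 8.98, and 2.59 above M3 to M5. Netrin 1 (Ntn1), an axon guidance protein, was 7.72 and 3.09 above M1 and M2 and M3 to M5 on that scale, and T-cadherin (Cdh13) 7.11 and 3.43. Ablim1, which ties receptors to actin, was 3.46 and 3.50 higher. Extracellular superoxide dismutase (Sod3), at 1814 CPM, was 4.31 and 2.45 higher, and the secreted protease Htra1, at 2207 CPM, 2.83 and 2.46 higher. Ugdh, which makes the sugar nucleotide for hyaluronan and other glycosaminoglycans, stood at 1330.1 CPM against 61.5 in M1 and M2 and 273 in M3 to M5. The large clusters differed in them, with Htra1 at 552 CPM in M7 and 5131 in M16, and Tnxb at 3888 CPM in M7 and 231 in M14. All 10 genes kept their direction in both ranges of library numbers in the titles, which hold the same cells that the genes were chosen from. With cells sorted as MSC-S only, of which M1 and M2 hold 0, all 10 were higher than in the 15 such cells of M3 to M5, from 0.97 for Htra1 to 3.55 for Ackr3. Many other genes were also higher against those 15 cells, as given below. Of the 10, all but Ackr3 are among the genes that guided the clustering.

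Of the 5 genes named for low levels, only Tmem176b is among the 606 that were lower in every large cluster. Runx2 was -4.02 and -2.73 against M1 and M2 and M3 to M5, and 26 of 124 cells carried it, although 3 of the 4 cells of M14 did. Tpm1, a tropomyosin of the actin cytoskeleton, had 104 CPM against 1077 and 379. The membrane protein Tmem176b had 2973 CPM in M1 and M2, 239.6 in M3 to M5 and 72.6 in M6 to M16. The phosphatase gene Ctdspl had 39.4 CPM against 147 and 131, and Rpph1, the RNA of RNase P, 16.0 against 54.7 and 55.

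Lists of known markers of fibroblasts were high in M6 to M16, in part through genes that guided the clustering. Of 15 genes of Dpp4-positive adventitial fibroblasts 14 were at least 2-fold higher in M6 to M16 than in M1 and M2 and 14 than in M3 to M5, with median log2 ratios of 7.34 and 2.95 beside medians of -0.30 and -0.11 over all measured genes. All 10 genes of synovial lining fibroblasts were higher on both sides (medians 7.51 and 2.98), and so were 9 of 14 general fibroblast genes (2.71 and 1.37). The synovial lining list summed to 174488 CPM in M16 and 21495 in M15. In M7 (6354), M12 (3839.6) and M14 (498) it was below the 7332 of M3 to M5. General fibroblast genes summed to 63835 CPM in M7, 53236 in M12 and 63992 in M14. Their sums in M15 (16242) and M16 (15055) were below the 18468 of M3 to M5. The members that did not guide the clustering had lower medians, -0.17 and 0.89 for 7 general fibroblast genes and 3.10 and 2.04 for 2 adventitial genes, and no synovial lining gene was of that kind. Tendon and enthesis genes were higher than in M1 and M2 (10 of 13, median 6.35) and less so than in M3 to M5 (4 of 13, median 0.39). Cartilage genes split the sides, with 15 of 18 higher than in M1 and M2 (median 3.27) and 15 of 18 lower than in M3 to M5 (median -3.23).

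Osteoblast and marrow-stroma genes were low. Of 15 osteoblast genes 11 were lower than in M1 and M2 and 15 lower than in M3 to M5 (medians -2.72 and -3.06). All 12 genes of leptin receptor-positive stroma were lower than in M1 and M2 (median -4.67), and their summed level was 1463 CPM against 67599.7, led by Cxcl12 on both sides (511 and 43556 CPM). Against M3 to M5 the same list was near level, with a median of -0.14, 3 members higher and 3 lower. Blood-supporting factors were lower in 10 of 12 against M1 and M2 (median -2.66), and 4 of 12 were higher than in M3 to M5 (median 0.69).

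Matrix and signalling groups add detail. Hyaluronan synthesis and precursor genes were higher in 8 of 12 against M1 and M2 (median 3.73) and in 6 of 12 against M3 to M5 (median 1.06), with a summed level of 7492 CPM against 345 and 2148, but the 6 members that did not guide the clustering had medians of 0.29 and 0.21. Fibril collagen genes were higher in 10 of 13 and in 4 of 13 (medians 1.36 and 0.65), and small leucine-rich proteoglycans in 8 of 12 and 3 of 12 (3.72 and 0.40), with 3 of 12 lower than in M3 to M5 and medians of 0.91 and 0.56 for the 8 that did not guide the clustering. Elastic fibre and microfibril genes were divided against M1 and M2, with 6 of 15 higher and 5 lower (median -0.15), and higher in 8 of 15 against M3 to M5 (1.21), where the 10 members that did not guide the clustering had a median of -0.08. NF-kB targets and IL-1 response genes were higher in 14 of 19 and 10 of 19 and lower in 5 and 2 (2.57 and 1.07), but within the lowest range of library numbers the medians were 0.94 and -0.13 and within the second 3.44 and 1.43. Limb position and joint factors were higher in 13 of 24 on each side (1.06 and 1.07), and immediate early genes in 7 of 16 and 0 of 16 (0.95 and -0.24).

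RNA of most other lineages was lower in M6 to M16 than in M3 to M5, though many cells carried a member of some lists. The summed level of 15 hematopoietic genes was 4.22 CPM, with Lyz2 the most abundant at 2.37 CPM and Cd52 at 0, against 60.4 CPM in M1 and M2 and 5132 in M3 to M5, and 7 of 124 cells carried a member. All 15 were lower than in M3 to M5 (median -6.92) and 7 of 15 lower than in M1 and M2 (-0.99). Pericyte and smooth muscle genes summed to 43.9 CPM against 628 and 1623 (medians -1.02 and -4.45), and Schwann cell genes to 78.1 CPM, mostly S100b at 51.7, against 83.2 and 575 (0.46 and -3.63). Adipocyte genes summed to 27.1 CPM against 287 and 596 (-1.96 and -1.81), and skeletal muscle genes to 1.93 against 4.03 and 16.0 (-0.69 and -1.63). The endothelial list gave 75.4 CPM against 18.9 and 57.4 (1.07 and 0.39), led by Erg at 36.5 CPM, so its sum was above both sides. Its members were divided. Of 8 measured, 4 were higher and 1 lower than in M1 and M2, and 2 were higher and 2 lower than in M3 to M5. A member was carried by 53 of the 124 cells for the endothelial list, 59 for the Schwann, 44 for the adipocyte, 31 for the pericyte and 5 for the skeletal muscle list. The part of the hematopoietic RNA of M3 to M5 in the ratios against those clusters was not tested. Cell cycle genes had medians of 1.07 and -0.58, with 5 of 10 higher and 1 lower against M1 and M2 and 1 higher and 4 lower against M3 to M5.

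The sort bears on the markers used to name the cells. With only MSC-S-sorted cells on both sides (103 against 15 in M3 to M5), the log2 ratio of Ly6a was 0.84 and not 3.55, that of Cd34 0.89 and not 2.50, and Thy1 had -0.33 and not 1.92. Dcn stood at 0.62 in place of 1.35 and Col1a1 at -1.37 in place of -1.13. Ly6a, Cd34, Thy1 and Dcn thus set M6 to M16 apart less from MSC-S-sorted cells of M3 to M5 than from M3 to M5 as a whole, and Col1a1 did not. With MSC-S-sorted cells only, 5758 of the 17717 measured genes were at least 2-fold higher than in those 15 cells. With all cells 1979 of the 17717 (11.2%) were higher than in M3 to M5. The marker ratios against those 15 cells were not set beside that wider shift. The count against M1 to M5 was 1345 with all cells and 2126 in the lowest range of library numbers. Scaling by median-of-ratios size factors moved the median of genes with at least 20 CPM over both sides from -0.25 to -0.35 against M1 to M5 and from -0.07 to -0.24 against M3 to M5. In the latter comparison 26.9% of the called genes were higher with size factors and 37.2% without.

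Within M6 to M16 the large clusters were compared over all measured genes and then by their leading genes. Across the 17717 measured genes, which are not independent replicates, Pearson's r between the log levels of clusters was 0.851 for M7 and M12, 0.834 for M7 and M16, 0.836 for M12 and M16 and 0.818 for M15 and M16. M14, with 4 cells, gave 0.736 with M12 and with M15. M15 had a lower r with M7 (0.769) and M14 (0.736) than with M3 (0.780) and M4 (0.783) of the OPr-like clusters, and a higher one with M12 (0.804). The comparisons that follow set each cluster against all other cells of M6 to M16. In them, size factors moved the median of genes with at least 20 CPM from 0.17 to 0.00 for M7, from 0.17 to 0.02 for M12, from -0.14 to -0.03 for M15 and from -0.27 to -0.07 for M16. Prg4 held 15.3% of the counts of M16 and 5.02% of those of M6 to M16, and without it in the totals the M16 median was -0.05.

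M7 was led by fibrillin and Dpp4. Fbn1, which encodes the core protein of microfibrils, stood at 4965 CPM (cells from 273 to 13722, median 4705), against 836 CPM in M12 and 75.8 in M16, and all 15 cells carried it. Dpp4, a surface peptidase of adventitial progenitors, was at 573 CPM in M7 (0 to 1564, median 584; 14 of 15 cells), 46.3 in M12 and 0 in M16. Efhd1, a calcium-binding protein of mitochondria, was at 356 CPM with 14 cells, a log2 ratio of 5.00 to the other cells, and Nov, a matricellular CCN protein, at 1521 CPM with 15 cells (3.14). Itgb3, the integrin partner of CD51, had 253 CPM (2.70), and the uncharacterised 1700019D03Rik 146 CPM (3.05), each in 13 cells. In M7 2069 genes were at least 2-fold higher (11.7%) and 3903 lower (22%).

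Most of the adventitial list was higher in M7. Of 15 genes 14 were at least 2-fold higher (median 1.84 beside -0.09 over all measured genes), and each cell of M7 carried 12 to 15 of the 15. Of the 15 genes 13 guided the clustering, and the median of the other 2 was 3.12. The summed level was 46621 CPM in M7 and 53570.1 in M16, where Fn1 alone had 49165. Igfbp6 at 6015 CPM, Sema3c at 1190.2, Ly6c1 at 1503, Col14a1 at 1308 and the microfibril protein Mfap5 at 1569.9 CPM were each carried by 15 of 15 cells. Pi16 was less even, in 8 of 15 cells at 372 CPM, with 46% of the counts in 1 cell. Dpp4 was not confined to M7: 10 of 10 cells of M9 carried it at 365 CPM, but Fbn1 had 435 CPM there. Cells of M9 carried 11 to 15 of the 15 adventitial genes (31627 CPM in sum) and cells of M6 11 to 14 (11851 CPM), so the list did not set M7 apart from them by presence. Hyaluronan genes stayed near the others (median 0.55, 1 of 12 higher), and general fibroblast genes did too (median 0.37, 2 of 14 higher). Lists of the skeletal tissues were low in M7, with 15 of 18 cartilage genes lower (median -3.69), 11 of 13 tendon genes (-2.49), 10 of 15 osteoblast genes (-2.15) and 7 of 10 synovial lining genes (-5.30). Within the 10 cells of the lowest range of library numbers the adventitial median was 2.03, and within the 5 cells of the second 1.96.

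M12 carried tendon genes in part of its cells. Thbs4, a thrombospondin of tendon and enthesis, stood at 4022 CPM (cells from 0 to 25553, median 1013), with 20 of 27 cells, against 152 CPM in M7 and 1.61 in M16. Tnmd, the tendon membrane protein tenomodulin, was carried by 8 cells at 425 CPM, while M7 had 0 counts of it and M15 and M16 at most 0.201 CPM. All 8 Tnmd cells of M12 also carried Thbs4, 6 carried the tendon transcription factor Scx, and 4 carried the keratocan gene Kera, whose 840.2 CPM came to 55.3% from 1 cell. Fmod, a proteoglycan of collagen fibrils, was at 7959 CPM in 18 cells, 16 of which also carried Thbs4. In M12 2226 genes were higher (12.6%) and 2836 lower (16.0%).

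Of 13 measured tendon genes 6 were higher in M12 and 0 lower (median 0.93 beside 0.00), and a cell carried from 1 to 13 of the 14 listed, with a median of 8. The summed level, 27345 CPM, was below that of M15 (49899) and M14 (32299), so the tendon list set M12 apart from M16 (3115) and not from those clusters. Small leucine-rich proteoglycans were higher in 3 of 12 (median 0.76), Dcn reached 33401 CPM, and fibril collagens were near the other cells (median 0.50). Synovial lining genes were lower in 9 of 10 (median -4.82) and cartilage genes in 11 of 18 (-1.91). The genes carried by most cells of M12 differed less. Fbln1, a basement membrane and elastic fibre protein, had 827 CPM in M12 (1.72) but 1916 in M6 and 1105 in M8. Tropomyosin Tpm3 had 301 CPM in 26 of 27 cells (1.33), the kinase Map4k4 129 CPM (1.05), and the IL-11 receptor gene Il11ra1 199 CPM (0.79). The cytokine-response genes Socs3 and Cebpd stood at 2219 and 556 CPM (0.89 and 0.94), in 25 and 24 cells. In young cells alone 3 of these 6 genes were at least 2-fold above the next highest large cluster, with the lowest log2 ratio at 0.04.

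M14 held 4 cells with collagen and bone matrix genes. Col1a1 was at 8828 CPM (cells from 124 to 18226, median 8512), Col3a1 at 15227 and Lum, the proteoglycan lumican, at 12027 CPM, and all 4 cells carried each of them. Of 13 fibril collagen genes 11 were higher (median 1.99 beside -0.56). Ibsp, a bone sialoprotein, was carried by 3 cells at 2979 CPM, the alkaline phosphatase gene Alpl by 2 at 782 CPM and Runx2 by 3 at 179 CPM. Of 15 osteoblast genes 7 were higher and 1 lower (median 0.88), while Sp7 had 8.70 CPM, Spp1 6.63 and Bglap 4.56. The list summed to 18336 CPM in M14 and 19170.4 in M15, led by Sparc in both, so its sum did not set M14 apart from M15. In M15 6 of the 15 genes were higher and 4 lower than in the other cells (median 0.14).

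M14 also carried some tendon and cartilage matrix genes, with Fmod at 16238 CPM, Comp, an oligomeric matrix protein, at 9771 CPM, and 4 of 4 cells carried Acan. The lists as a whole were divided. Of 18 cartilage genes 4 were higher and 9 lower (median -1.56). Of 13 tendon genes 5 were higher and 6 lower (median 0.89, and -0.25 for the 10 that did not guide the clustering). Adventitial, synovial lining and NF-kB genes were lower there than in the other cells, with 14 of 15, 10 of 10 and 13 of 19 lower (medians -3.61, -8.02 and -3.56), and 10 of 12 hyaluronan genes lower (-2.99). Each cell of M14 still carried 4 to 6 of the adventitial and 4 to 7 of the NF-kB genes. The genes named for it were each carried by 3 of 4 cells. Npnt, the matrix ligand nephronectin, had 520.2 CPM (5.76 in log2 to the other cells), 90.6% of it in 1 cell. Ackr4, a chemokine scavenger, had 373 CPM (4.33; 79.9% in 1 cell) and the growth factor Igf2 151 CPM (3.76; 91.2% in 1 cell). Galr2, a galanin receptor, had 244 CPM (4.48), Megf6 274 CPM (4.07) and the nuclease gene Mus81 118 CPM (3.21). Without the cell with the most counts of each gene 5 of the 6 stayed at least 2-fold above the next highest cluster, and the lowest ratio was 0.19. In M14 2295 genes were higher (13.0%) and 7009 lower (39.6%), but 4 cells sample few genes.

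M15 carried cartilage genes and came only from young mice. Acan, the main proteoglycan of cartilage, was carried by 15 of 17 cells, against 2 of 27 in M12 and 0 of 36 in M16. The link protein gene Hapln1 stood at 662 CPM (cells from 25.9 to 1544, median 489) and Col11a1, a chain of cartilage collagen fibrils, at 745 CPM, each in 17 of 17 cells. The cartilage transcription factor Sox9 had 895 CPM in 16. Of 18 cartilage genes 15 were higher and 0 lower (median 4.41 beside -0.20), and the median was 3.04 and 5.30 in the lowest and the second range of library numbers. Of the 18 genes 16 guided the clustering, and the median of the other 2 was 0.84. In M15 2032 genes were higher (11.5%) and 4053 lower (22.9%).

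All 17 cells of M15 also carried Mfi2, a transferrin-family iron-binding protein also called melanotransferrin. It had 1403 CPM (28 to 3843, median 1689.6) and 0.249 CPM in M12. Clec3a, a cartilage lectin, had 891 CPM in 14 cells, the chondroitin sulfotransferase Chst3 643 CPM in 14, and carboxypeptidase M (gene Cpm) 1873 CPM in 14. Casr, the calcium-sensing receptor, had 954 CPM in 15 cells and Tnfrsf21 363 CPM in 13. The log2 ratios to the other cells ran from 6.32 (Cpm) to 10.26 (Mfi2). Clu, the secreted chaperone clusterin, reached 26634 CPM (15.6 to 99179, median 21979), and all 17 cells carried it.

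Not all of the cartilage list was present in M15. Col2a1, the fibrillar collagen of hyaline cartilage, was carried by 8 of 17 cells, with 60.1% of its 1727 CPM in 1 cell, against 13888 CPM in M3 to M5. Matn1 had 0 counts and Matn3 0.248 CPM, against 659 CPM of Matn3 in M3 to M5. The cytokine-like protein Cytl1 was uneven, at 12849 CPM with a median of 734 over cells. The summed cartilage level, 36694 CPM, was below the 48394 of M3 to M5, and a cell of M15 carried 7 to 16 of 18 genes with a median of 9, against a median of 17 in M3 and 16 in M4. Some genes of the tendon insertion and the joint had RNA there too: Fmod at 17817 CPM, Cilp at 14732, Comp at 10812 and Prg4 at 19379 CPM, 47.1% of the last in 1 cell. All 10 synovial lining genes, Prg4 among them, were nonetheless lower in M15 than in the other cells (median -3.63), which include M16. The list summed to 21495 CPM in M15, below the 174488 of M16 but above 6354 in M7, 3839.6 in M12 and 498 in M14. Of 13 tendon genes 7 were higher and 4 lower, and of 13 fibril collagen genes 7 and 2 (medians 1.04 and 1.04). Adventitial genes were lower in 11 of 15 (-2.37), elastic fibre genes in 12 of 15 (-3.55), NF-kB targets in 15 of 19 (-4.16) and blood-supporting factors in 10 of 12 (-3.66).

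M16 was led by Prg4 and other genes of the joint lining. Prg4, which encodes lubricin, stood at 152867 CPM (cells from 3694 to 289738, median 157915) and was carried by 36 of 36 cells, against 19379 CPM in M15, 2535 in M12 and 2296 in M7. Clic5, a chloride channel protein, was at 1117 CPM (11.7 to 3606, median 728) in 36 cells and at most 3.09 CPM in M7, M12 and M15. F13a1, the transglutaminase chain of factor XIII, had 3577 CPM (433 to 10292, median 3289.7), and 36 of 36 cells carried both it and Clic5. The tetraspanin Tspan15 (780.3 CPM, 36 cells), Col22a1, a collagen of tissue junctions (1074 CPM, 34 cells), the semaphorin Sema3f (119 CPM, 28 cells) and the actin-capping Tmod1 (74.2 CPM, 27 cells) followed. Their log2 ratios to the other cells lay between 4.16 for Tmod1 and 9.05 for Clic5. In M16 1222 genes were higher (6.90%) and 3922 lower (22.1%). The number higher was 1987 in old cells alone and 2256 in the lowest range of library numbers.

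Of the 10 synovial lining genes 9 were higher in M16 and 0 lower (median 4.76 beside -0.27), and a cell carried 7 to 10 of them with a median of 10. The median was 5.13 and 4.62 in the lowest and the second range. All 10 are among the guide genes of the clustering. The list summed to 174488 CPM, against 21495 in M15, 6354 in M7 and 3839.6 in M12. Htra4, a secreted protease, had 5987 CPM in 35 cells, Hbegf, an EGF-family ligand, 3344 in 35, and Has1, a hyaluronan synthase, 5051 in 34. Fn1, fibronectin, stood at 49165 CPM in all 36 cells.

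Fibrous matrix genes were lower in M16 than in the other cells, though each of its cells carried 6 to 12 of 13 fibril collagen genes and Dcn had 7131 CPM in 36 of 36. Of the 13 collagen genes 12 were lower (median -2.42), with Col1a1 at 298 CPM and Col1a2 at 154. Small leucine-rich proteoglycans were lower in 11 of 12 (-5.43), tendon genes in 12 of 13 (-5.77) and cartilage genes in 14 of 18 (-4.08), and Fmod had 3.98 CPM. General fibroblast genes were lower in 8 of 14 (-1.49). Limb position and joint factors were higher in 4 of 24 and lower in 8 (-0.42). Cell cycle genes were higher in 9 of 10 (2.05), but 97.1% of the counts of Mki67 came from 1 young cell, and 98.7% of those of Top2a from 1 cell, and 6 of 36 cells carried any member.

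**Figure D2:**
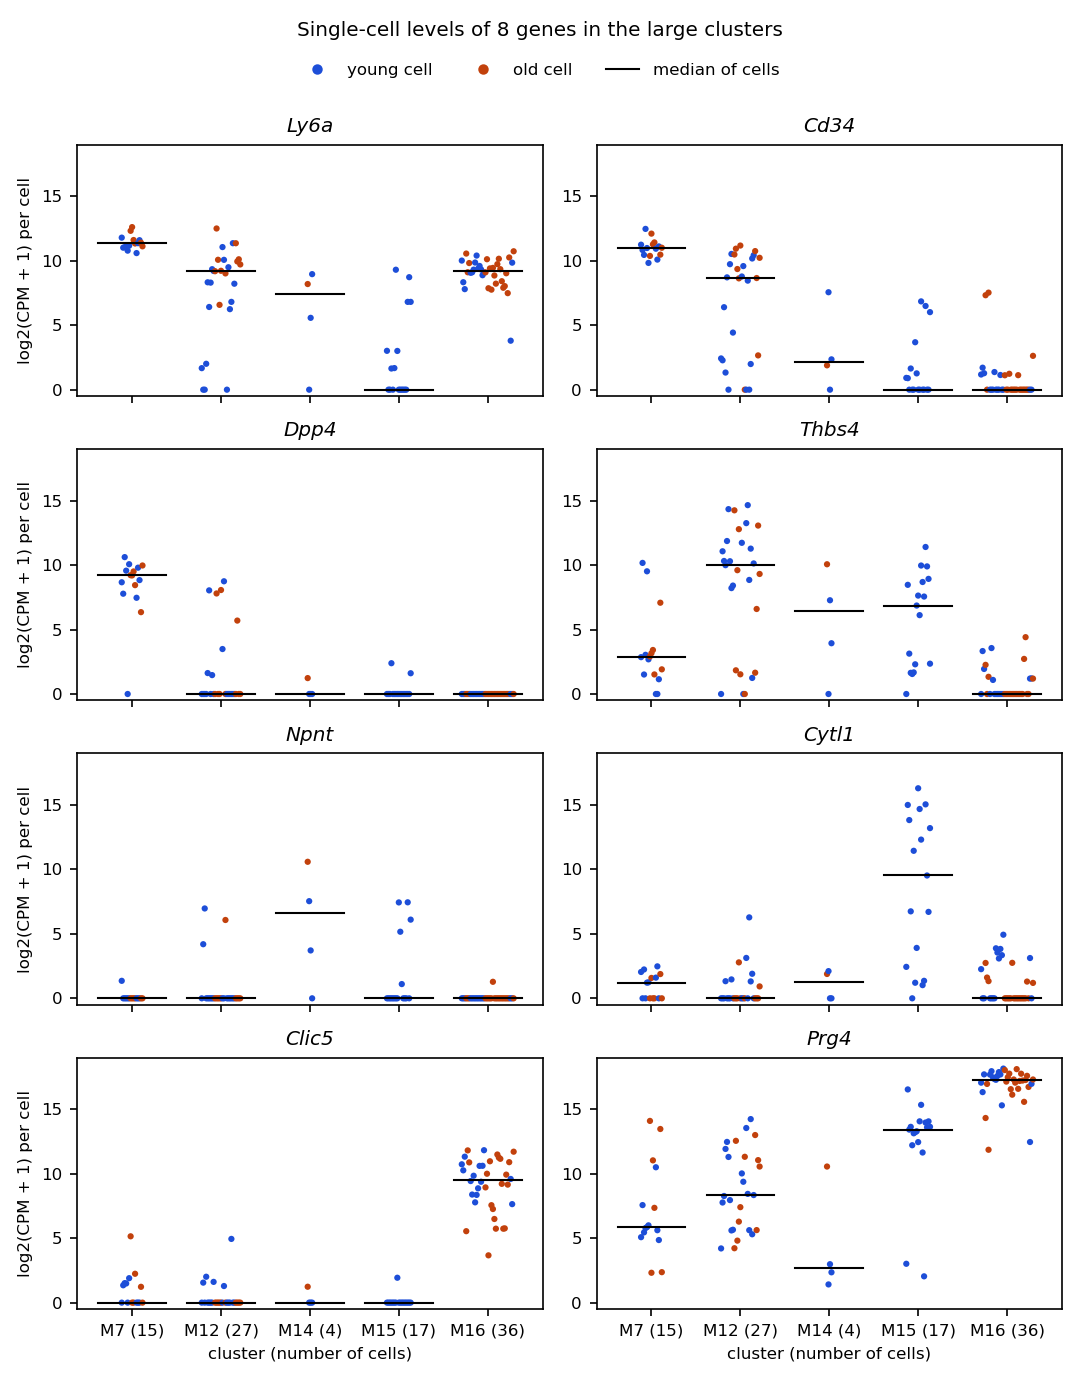
Per-cell log2(CPM + 1) of Ly6a, Cd34, Dpp4, Thbs4, Npnt, Cytl1, Clic5 and Prg4 (vertical axes) in M7, M12, M14, M15 and M16 (horizontal axes), with young cells in blue, old cells in orange and a line at the median. Clic5 was carried by 36 of 36 cells of M16 and by 0 of 17 of M15, and Thbs4 ranged from 0 to 25553 CPM among the cells of M12.

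Pairs of leading genes were counted cell by cell. Dpp4 and Clic5 were named for being high in different clusters, so few shared cells follow from that choice. Over M6 to M16 31 cells carried Dpp4, 38 Clic5 and 19 Cytl1. No cell carried Cytl1 with Dpp4, 1 cell carried Dpp4 with Clic5, and 4 cells carried Cytl1 with Clic5, all of them in M16. Clic5 was thus carried by 4 of 19 Cytl1 cells, beside 38 of all 124. Of the 61 Cd34 cells 3 carried Clic5, and 28 carried Thy1, which 31 cells did. Prg4 was by contrast carried by 115 of 124 cells, with 27 of the 31 Dpp4 cells among them. Lubricin at 10 CPM or more therefore did not mark M16. Its amount was higher there on average, but cells overlapped, with M16 from 3694 CPM and M15 up to 94528.

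M12 and M15 took in cells from more than 1 sorted population, so the genes of the gate can be read in them. In the young cells of M15 Ly6a was at 274 CPM in the 5 sorted as MSC-S, 0.459 in the 7 mOPr and 1.76 in the 5 OPr. Pdgfra ran at 185, 376 and 51.3 CPM in the same order, and Itgav (CD51) at 158, 131 and 148. RNA of Ly6a and Pdgfra thus followed the protein gates. Lepr did not separate them, with 291 CPM in MSC-S, 80.2 in mOPr and 172 in OPr, both of the last sorted as LepR-, and 97.3% of the OPr counts lay in 1 cell. Mfi2 was carried by every cell of the 3 groups, at 808, 1442 and 1782 CPM. Acan was carried by 3 of 5, 7 of 7 and 5 of 5 cells, and Comp was highest in MSC-S (22083 CPM, against 7867 and 5749.8). Prg4 had 12095, 7753 and 35652 CPM, with 68.2% of the OPr counts in 1 cell. In young M12 Ly6a had 673 CPM in 13 cells sorted as MSC-S and 0.467 in 4 mOPr, Pdgfra 785 and 571, Itgav 52.9 and 107, and Lepr 122 and 56.5. Thbs4 was at 4542 and 3750.1 CPM on the 2 sides, 78% of the latter in 1 cell, and Tnmd at 548 and 0 CPM. Sca-1-negative cells thus sat in M12 with Thbs4 and in M15 with Mfi2 and Acan, and with little Ly6a.

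Old and young cells could be compared inside M7, M12 and M16, where at least 6 cells of each age were present. In M12 4 of the 17 young cells were sorted as mOPr and all 10 old ones as MSC-S, so age and sorted population are partly mixed there. Nsg1, an endosomal protein known from neurons, was higher in old cells of all 3 clusters. In M7 it went from 48 CPM in young cells to 215 in old (medians of cells 22.5 and 149.6), in M12 from 33.5 to 323 (0 and 114), and in M16 from 19.8 to 95.9 (0 and 61.6). The clusters showed their leading lists at both ages, with age medians of -0.19 for the adventitial list in M7, -0.34 for the tendon list in M12 and -0.15 for the synovial lining list in M16.

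In M7 3106 genes were at least 2-fold higher in old cells (17.5%) and 3836 lower (21.7%), in M12 3065 (17.3%) and 3999 (22.6%), and in M16 2440 (13.8%) and 2051 (11.6%). In all 3 clusters 147 of the 17717 measured genes were higher and 163 lower. Some overlap follows from the shares called in each cluster alone, and how much was not tested. With 6 to 21 cells a side, a few cells set many of these ratios, and the mice behind them are not named, so age and mouse cannot be told apart. Nrp2, a receptor for semaphorins and VEGF-C, was at 8.53 CPM in young and 238 in old cells of M7, 55.7 and 248 in M12, and 46.8 and 108 in M16. Dtnbp1, of the endosomal sorting complex BLOC-1, was at 82.8 and 230.3, 63.3 and 187, and 70.5 and 164 CPM. Nrp2 and Nsg1 were higher in old cells in each range of library numbers that gave a ratio, whereas Dtnbp1 was -0.85 in the lowest range of M12 and 1.70 in the second. The genes were chosen by ratios over these same cells, so agreement within a range is no separate support.

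Further genes had the same direction of the old over young ratio in all 3 clusters. They too were chosen for it in the cells that make up the ranges, so agreement within ranges is again no separate support. Preb, a guide of ER export, had log2 ratios of 2.50, 2.09 and 1.10 in M7, M12 and M16, and the histone mRNA-binding gene Slbp 1.06, 1.20 and 1.08. Both were higher in each range that gave a ratio too. The second range of M7, with 2 old cells, gave none for any gene. Fndc3a had 1.16, 1.29 and 1.36 but -0.82 in the lowest range of M7. Lower in old cells were Neo1, the receptor neogenin (-1.26, -1.68 and -1.16), Pomp, a proteasome assembly factor (-1.68, -1.36 and -0.88), and R3hdm4 (-1.15, -0.91 and -1.06), each lower within every range that gave a ratio. The nuclear RNA Neat1 had -0.95, -1.13 and -1.32, the histone variant gene H2afv -1.08, -2.81 and -1.22, and Glns-ps1 -0.93, -1.36 and -1.01, a pseudogene whose reads cannot be told from those of its parent gene. In the lowest range of M16, with 3 cells of each age, Neat1 was 0.28, H2afv 0.22 and Glns-ps1 1.23, so their direction held in the other ranges that gave a ratio and not there. Without the cell with the most counts the smallest of the 3 ratios was -0.13 for H2afv, -0.53 for Neat1, -0.34 for Glns-ps1 and -0.58 for R3hdm4, while Neo1 and Pomp stayed at -1.16 and -0.88. Of the 6 genes named as higher in old cells, 4 stayed at least 2-fold without that cell, and the lowest ratio was 0.41.

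NF-kB targets had different age ratios in the 3 clusters. Of 19 NF-kB targets 9 were higher and 0 lower in old M16 (median 0.96), against 3 higher and 10 lower in old M7 (-1.14) and 4 higher and 8 lower in old M12 (-0.66), beside medians of 0.00 over all measured genes. The summed level of the list in M16 was 1138 CPM in young and 3625 in old cells, led by Nfkbia, the inhibitor that NF-kB induces. In M7 it was 4648 and 2593 CPM. Cxcl1, a neutrophil chemokine, was at 163 and 906 CPM in young and old M16, with 77.5% and 37.9% of the counts in 1 cell, and at 928 and 420.0 in M7. The M16 median was 1.19 in the second range and 0.00 in the lowest, where 3 genes were higher and 4 lower. The difference between clusters was not tested. Over all of M6 to M16 the list summed to 3429 CPM in young and 5775 in old cells (median 0.42), and the median was -0.11 without M9 and M15. Immediate early genes were lower in 11 of 16 in old M7 (-1.37), with a summed level of 8541 CPM against 24327, and near level in M12 (-0.34) and M16 (-0.52). Such genes respond to cell isolation, and its part was not tested.

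Pooling all of M6 to M16 mixes age with cluster, since M9 is old and M15 young, and with the sort, since all 53 old cells but 50 of 71 young ones were sorted as MSC-S. In the pool 1310 genes were higher in old cells (7.39%) and 2289 lower (12.9%). Without M9 and M15 997 of the 1310 and 1580 of the 2289 were still at least 2-fold, and 933 of the 2289 were also at least 2-fold higher in M15 than in the other cells. The cartilage list shows it, with a pooled median of -4.26 and 15 of 18 lower, and -0.54 and 8 of 18 without those clusters. Clu was lower in old cells at every level of grouping, at 8206 CPM in young and 60.9 in old cells, and 1403 and 65.5 without M9 and M15, and its log2 ratio was -2.42, -5.96 and -3.02 within M7, M12 and M16. C4b, the complement protein C4, was higher, at 56.6 CPM in young and 689 in old cells (74.4 and 659.6 without M9 and M15), and 3.63, 4.11 and 2.77 within the 3 clusters. In M7 90.9% of the old C4b counts came from 1 cell, and in the lowest range of M16 the ratio was -5.29.

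Of the 10 genes with the largest pooled ratios 8 were still at least 2-fold in the same direction without M9 and M15, and Sfrp4 and Cytl1 were not. With cells sorted as MSC-S only, Cytl1 had -2.90, Cpm -3.10, Casr -4.41, Clu -6.39 and Chad -6.40. Sfrp4, a secreted Wnt antagonist, had 9557 CPM in old and 908 in young cells, but 1492 and 1236 CPM without M9 and M15, and Chrdl1, a BMP antagonist, had pooled and remaining ratios of 3.55 and 1.23. Cytl1 had -7.25 in the pool and 2.50 without those clusters, where 97.8% of the old counts came from 1 cell. Casr was at 269 CPM in young cells and 0 counts in 53 old cells, and at 16.7 and 0 CPM without M9 and M15. Cpm had -6.46 and -4.46 and Chad, a cartilage proteoglycan, -5.95 and -3.68. Il6 was at 24.7 CPM in young and 314 in old cells (33.8 and 194 without M9 and M15) but -3.90 within M7, and Csmd1, a complement-regulating protein, at 3.82 and 80.6 CPM with 3 young and 14 old cells carrying it.

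**Figure D3:**
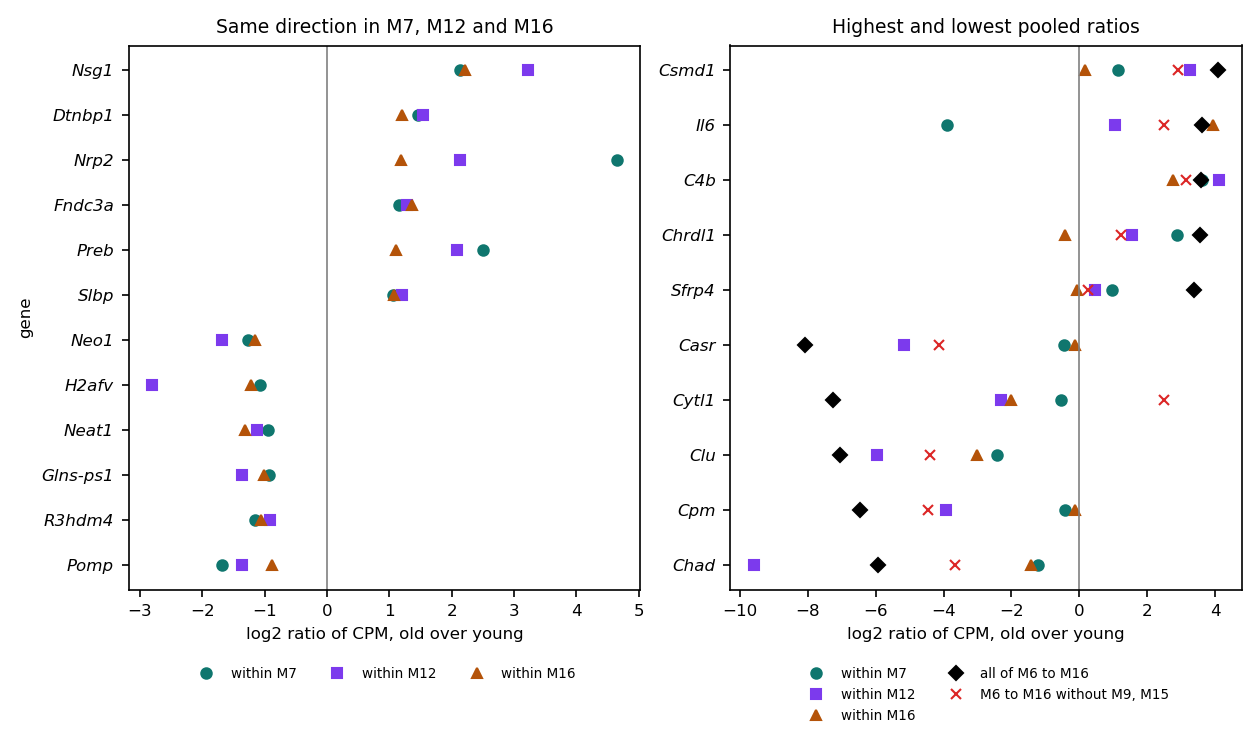
Log2 ratio of old over young CPM (horizontal axis) for the genes (vertical axis) chosen for the same direction in M7, M12 and M16 (points by cluster) and for the genes with the largest pooled ratios, in all of M6 to M16 and without M9 and M15. Cytl1 moves from -7.25 to 2.50 when M9 and M15 are left out, whereas Clu stays negative at -7.05 and -4.40.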

How the data were processed

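The count table deposited by the authors was used as given: HTSeq counts, made without strand, of GSNAP (2015-09-29) alignments to GRCm38.p4. The table had 46078 gene entries and 661 cells. Of these entries, 270 repeating a symbol were summed, leaving 45771 nuclear and 37 mitochondrial genes. All columns matched a label (0 unmatched). The 307 endothelial columns were not used here. Doublets were not called. Counting without strand can mix overlapping genes.

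Levels are CPM of summed nuclear counts, with exact Poisson and Clopper-Pearson intervals (scipy 1.17.1, numpy 2.4.6, pandas 2.3.3, matplotlib 3.10.9, Python 3.11.15); ratios add 1 CPM. Members and the 24 gene lists were chosen with earlier results of these data known. Named genes were carried by 50% of cells of each large cluster (10 highest by the smaller ratio to M1 and M2 and to M3 to M5), by 50% of cells of M1 and M2 and of M3 to M5 (5 lowest by the larger ratio), by 75% of cells of a cluster (6 against the next highest large cluster), or had the same age direction in M7, M12 and M16 (6 each way) or the largest pooled age ratios (5 each way, 25% of cells), the last 3 with at least 1000 counts. Genes outside these rules, such as pair genes, were named after their values were seen.

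Alternatives were thinning to 100000 counts, size factors by median of ratios, the mean of cell CPM, a pseudocount of 0.1 CPM, no gene filter, each age, each library-number range, MSC-S-sorted cells only, leaving out the top cell, and leaving out M9 and M15. Library totals without Prg4 were chosen after seeing the data. Steps were tested on simulated data.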

Additional observations from a re-analysis of the deposited data

How the results depend on the processing

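The named genes were chosen for large ratios in these same cells, and 72 of the values counted here, those without the gene filter, cannot differ. Of 743 values of 72 named-gene results under the alternatives, 729 kept the direction, among them all 100 of the genes high and all 50 of those low in M6 to M16, and 66 of 66 for M7, for M12 and for M16, 60 of 60 for M15 and 53 of 54 for M14. The label markers kept it in 51 of 55, the age genes shared by 3 clusters in 46 of 48 higher and 45 of 48 lower, and the pooled age genes in 62 of 65 and 64 of 65. The count of genes higher in M6 to M16 than in M1 to M5 was 1345, and it was 2126 in the lowest range of library numbers. With cells sorted as MSC-S only it was 5758 of the 17717 measured genes, but M1 and M2 then held 0 cells and M3 to M5 15. The count against M3 to M5 with all cells was 1979. The count for M16 was 1222, and 1987 with old cells only and 2256 in the lowest range. The median of the adventitial list in M7, 1.84, was 1.73 with size factors, 1.75 with old cells only and 1.72 with MSC-S only. Col1a1 against M1 to M5, at -0.07, was 1.88 in the lowest range, 0.11 with old cells only and 0.40 without the cell with the most counts. With MSC-S only Thy1 had -0.33 and Igf2 in M14 -0.01. In the lowest range the smallest age ratio of Dtnbp1 was -0.85, that of Fndc3a -0.82 that of H2afv 0.22, that of Neat1 0.28 and that of Glns-ps1 1.23. Within M7 Il6 had -3.90, within M16 Chrdl1 had -0.41 and Sfrp4 -0.07, and without M9 and M15 Cytl1 had 2.50. For all of these the cause was not tested. Values with fewer than 3 cells on a side were not run: 15 with MSC-S only, 8 in the lowest range, 12 in the second, 38 with old cells only and 22 with young cells only. M14 rests on 4 cells and the age ratios of M7 on 9 and 6.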

Other observations

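The smaller clusters had leading genes of their own. In M9, all 10 cells old, Sfrp4 stood at 37559 CPM (cells from 16247 to 53473, median 38832) and Chrdl1 at 1917 CPM, and 10 of 10 cells carried each. NF-kB targets summed to 12598 CPM in M9, against 6907 in M6, 3827 in M7, 5004 in M8, 5087 in M12, 2428 in M15 and 2605 in M16. The chemokine Cxcl1 led the list in M9, at 3026 CPM in 9 cells, and also in M6, at 3163 CPM. In M9 the prostaglandin synthase Ptgs2 had 1479 CPM in 8 cells and the chemokine Ccl7 2694 CPM in 7, with 43.9% of the latter in 1 cell. Since M9 has no young cells, age and cluster cannot be told apart in it. In addition, 9 of its 10 cells had library numbers from RBG20339 to RBG20352, so that run of libraries is mixed with M9 too.

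M6 and M8 had high levels of some stromal genes. Gsn, the actin-severing protein gelsolin, stood at 55939 CPM in M6 and 46616 in M8. In M6 4 of 5 cells carried Abcc9, a potassium channel subunit of mural cells, at 302 CPM, and 3 carried its partner Kcnj8 at 96.7 CPM, 73.9% of it in 1 cell. The whole list of 10 pericyte and smooth muscle genes summed to 438 CPM in M6, with 4 members at 0 counts, and to 47.3 in M8, with 5 at 0 and Notch3 at 40.3. Lipoprotein lipase (Lpl) was at 970.2 CPM in M6, in 5 of 5 cells. In M8 6 of 7 cells carried the growth factor Fgf7 at 257 CPM and the adhesion protein Icam1 at 1017 CPM, and Cxcl12 was at 4248 CPM with 76.7% in 1 cell. Immediate early genes summed to 46936 CPM in M6 and 52069 in M8, the highest sums among M6 to M9, M12 and M14 to M16, led by Fos at 19894 and 20705 CPM.

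Sex-linked genes give a view of the animals. Of the 124 cells 112 had a count of a Y-linked gene, 3 had a count of Xist, 1 of them at 10 CPM or more, and 12 had neither. The 5 sex-linked genes had median ratios of -1.10 against M1 and M2 and -0.40 against M3 to M5, with 4 and 0 of them lower.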
